A study of Arabidopsis thaliana with 4 samples.

Results

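The genes described here encode the gibberellin receptors GID1A (AT3G05120), GID1B (AT3G63010) and GID1C (AT5G27320) of Arabidopsis thaliana and the F-box proteins SLY1 (SLEEPY1, AT4G24210) and SNE (SNEEZY or SLEEPY2, AT5G48170). They were chosen by their place in the pathway, with earlier results of these data known. Each was to be represented by a probe set paired with that locus alone in the array annotation. All 5 had such a probe set, out of 13286 loci that did. Each locus had exactly 1, so no second probe set could be set beside it: 259302_at for GID1A, 251200_at for GID1B, 246782_at for GID1C, 254160_at for SLY1 and 248741_at for SNE. None of these identifiers carries the s_at or x_at ending that marks probe sets shared by near-identical transcripts.

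Gibberellins are plant hormones that promote germination, elongation growth and flowering. A GID1 receptor, a soluble protein of the carboxylesterase fold, closes over the hormone and then binds a DELLA protein, a nuclear repressor of growth. SLY1 is the F-box subunit of an SCF ubiquitin ligase that recognises the DELLA in this complex and marks it for destruction by the proteasome, and SNE is its close homologue, which can take over part of that role when it is overexpressed. In Arabidopsis the receptors overlap in function, and receptor transcripts are known to be under feedback, higher where gibberellin is scarce and DELLA proteins accumulate.

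The DEX group comprised seedlings that carry 35S::Dof3.2-GR and received 10 µM dexamethasone (DEX), a synthetic glucocorticoid, for 3 h, and the mock group comprised seedlings of the same genotype with a mock treatment. In this transgene Dof3.2, a zinc finger transcription factor, is fused to the glucocorticoid receptor under the constitutive viral 35S promoter, and such a protein stays outside the nucleus until the steroid is given. All seedlings were grown at 22 °C, first for 4 days on agar (1% sucrose, kanamycin at 50 µg/ml) and then for 4 days in shaken liquid medium, and their total RNA was hybridised to 4 one-colour Affymetrix arrays, 2 per group. Both groups carry the fusion, and DEX-treated seedlings without it were not analysed here, so the steroid's own effect cannot be told apart from that of the fusion. The labels do not say whether the mock treatment contained the solvent of DEX, so an effect of solvent cannot be told apart either. They also do not say whether the arrays came from separate cultures or how many transgenic lines were used, and the p-values then reflect the spread between these arrays alone, which could be technical.

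Values are MAS5 signals, probe set intensities on a linear scale in arbitrary units after each array was scaled as a whole. The median signal lay between 191 and 193 on the 4 arrays. Within the 13648 probe sets that passed a filter on brightness (a mean log2 signal at or above the 40th percentile, a signal of about 110.6), the median absolute log2 difference between replicates was 0.118 for the DEX arrays and 0.162 for the mock arrays. Of the marker genes for green tissue 4 of 7 had a probe set, with summed signals of 52051 and 44809 on the DEX arrays and 50193 and 52826 on the mock arrays. Of the root markers 4 of 4 had one, with summed signals of 15116 and 16000 on the DEX arrays and 15439 and 15989 on the mock arrays. Most of the root sum came from PYK10 alone, at 13648.4 and 14584.4 on the DEX arrays and 13475.6 and 14012.3 on the mock arrays, so the sum says little about the other root markers. No marker with a probe set was near 0, the lowest single signal being 140.2, and the 5 seed and embryo markers were not analysed here.

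None of the receptor or F-box genes passed the test for a change after DEX. GID1B and SLY1 had the largest estimates among the 3 that were bright enough to test, 1.4-fold and 1.26-fold higher in DEX seedlings, and GID1A had an estimate of 1.09-fold with overlapping groups. GID1C and SNE fell under the brightness filter and were not tested. The count of tested genes past the threshold was thus 0 of 3 (limma, two-sided, Benjamini-Hochberg adjustment over all 13648 probe sets, threshold 0.05), where 0.586% of all tested probe sets passed, 40 higher and 40 lower. At an unadjusted p under 0.05 the count was 2 of 3, both higher in DEX, where 4.81% of all tested probe sets were higher and 9.25% differed in either direction. The median log2 change of the 3 tested genes was 0.33, and that of all tested probe sets was -0.01. Because the genes were chosen with earlier results of these data known, these counts and medians are a description and no independent evidence. In whole seedlings, a change in the number of cells that express a gene and a change in its RNA per cell cannot be told apart.

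**Figure D1:**
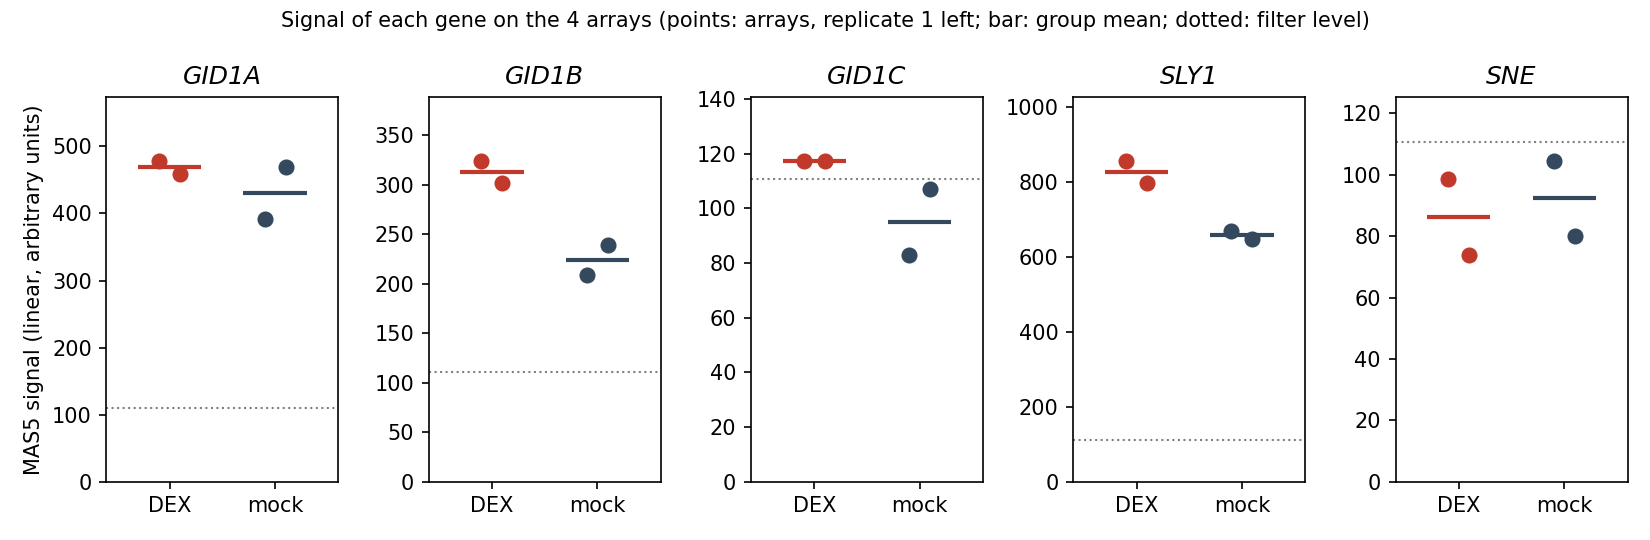
MAS5 signal (linear axis from 0, arbitrary units) of the 5 genes on the 2 DEX and the 2 mock arrays, with replicate 1 on the left in each group, a bar at each group mean and a dotted line at the brightness filter of 110.6. GID1B, GID1C and SLY1 show both DEX points above both mock points, and GID1A and SNE overlap. Both DEX arrays lay above both mock arrays in 18.2% of all tested probe sets and in 14.4% of those under the filter. The GID1C points lie on either side of the filter level.

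Among the receptors, GID1B encodes the one known from biochemical work for tight hormone binding. Its signal was 324.4 and 302.4 on the DEX arrays, against 208.7 and 238.9 on the mock arrays. The groups did not overlap: the lower DEX array stood 1.27-fold above the higher mock array, and the widest of the 4 DEX to mock pairs gave 1.55-fold. Both DEX arrays lay above both mock arrays in 18.2% of all tested probe sets. GID1B averaged 313.4 ± 15.6 in DEX seedlings and 223.8 ± 21.4 in mock seedlings (SD, n = 2 each). In limma its log2 change was 0.49 ± 0.15 (SE), with a 95% interval from 0.15 to 0.82, an unadjusted p of 0.00896 and an adjusted p of 0.301. By the size of the estimate 1.69% of all tested probe sets stood above it. The smallest fold that passed the threshold among the tested probe sets was 1.53, above the estimate for GID1B. The largest unadjusted p in limma that passed was 0.000292. The estimate stayed above 0 without any single array, from 0.39 without mock replicate 1 to 0.59 without mock replicate 2, and the adjusted p in limma over all alternative settings ran from 0.0974 to 0.963.

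GID1A encodes a receptor of the other subgroup of the family, to which GID1C also belongs. Its signal was 478.5 and 459.0 on the DEX arrays, against 392.1 and 469.8 on the mock arrays. The groups overlapped, since mock replicate 2 lay between the DEX arrays, and mock replicate 1 was the lowest of the 4. GID1A averaged 468.8 ± 13.8 in DEX seedlings and 430.9 ± 55.0 in mock seedlings (SD, n = 2 each). The log2 change was 0.13 ± 0.14 (SE; adjusted p = 0.851, limma), with a 95% interval from -0.18 to 0.44, that is from 0.882-fold to 1.35-fold. Without mock replicate 1 the estimate was -0.0036, and without mock replicate 2 it was 0.26, so its direction rested on mock replicate 1.

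GID1C, the third receptor gene, was dim, with a brightness at the 39.1 percentile of all probe sets. Its signal was 117.4 and 117.3 on the DEX arrays, against 83.0 and 107.0 on the mock arrays. Both DEX arrays lay above both mock arrays, which 14.4% of the probe sets under the filter showed, and the mock arrays differed from each other by more than mock replicate 2 differed from the DEX arrays. GID1C averaged 117.4 ± 0.119 in DEX seedlings and 95 ± 16.9 in mock seedlings (SD, n = 2 each), a log2 difference of 0.32 that was 0.13 without mock replicate 1 and 0.50 without mock replicate 2. When all probe sets were fitted without the filter, its log2 change was 0.32 ± 0.24 (SE) with an adjusted p of 0.796 in limma.

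The receptors were also compared with each other inside each array, where a ratio of 2 probe sets can show whether they changed unequally, although its level has no meaning by itself. The log2 ratio of GID1B to GID1A was -0.56 and -0.60 on the DEX arrays, against -0.91 and -0.98 on the mock arrays. The groups did not overlap, and the ratio was higher by 0.36 on the log2 scale in DEX seedlings. The exact permutation test over arrays gave p = 0.333 (two-sided, n = 2 each), the smallest that 2 arrays against 2 can give, so a difference between the receptors in their response was not established. Without each array in turn this difference lay between 0.33 and 0.39. Ratios that involve GID1C or SNE were not tested because these probe sets were under the filter.

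**Figure D2:**
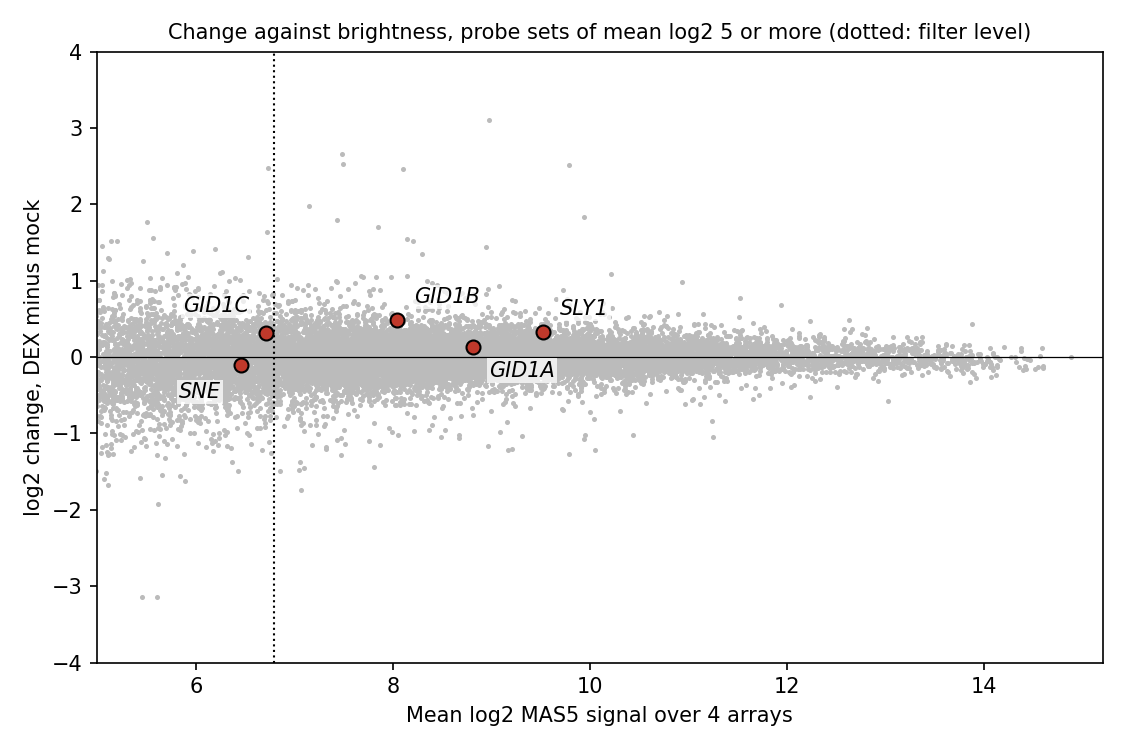
log2 change (DEX minus mock) against the mean log2 MAS5 signal of the 4 arrays, with probe sets in grey, the 5 genes in red and a dotted line at the brightness filter; 5724 probe sets with a mean log2 signal under 5 are not drawn. All 5 genes lie within the cloud of grey points, with GID1B at 0.49 the highest of them and SNE at -0.10 and GID1C at 0.32 left of the filter.

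SLY1, the F-box subunit through which DELLA proteins are marked for destruction, had a probe set at the 79.8 brightness percentile. Its signal was 856.9 and 798.5 on the DEX arrays, against 668.7 and 648.2 on the mock arrays. The groups did not overlap, with both DEX arrays above both mock arrays as in 18.2% of all tested probe sets. The 4 DEX to mock pairs gave 1.19-fold to 1.32-fold. SLY1 averaged 827.7 ± 41.3 in DEX seedlings and 658.4 ± 14.5 in mock seedlings (SD, n = 2 each). Its log2 change was 0.33 ± 0.11 (SE), with a 95% interval from 0.07 to 0.59, an unadjusted p of 0.0172 and an adjusted p of 0.385 in limma. By the size of the estimate 5.09% of all tested probe sets stood above it. The estimate ran from 0.28 to 0.38 without each array in turn.

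SNE, the homologue of SLY1, was the dimmest of the group, at the 36.5 brightness percentile. Its signal was 98.5 and 73.7 on the DEX arrays, against 104.5 and 80.0 on the mock arrays. The groups overlapped, and replicate 1 was the brighter array in each. SNE averaged 86.1 ± 17.5 in DEX seedlings and 92.3 ± 17.3 in mock seedlings (SD, n = 2 each), a log2 difference of -0.10. Its sign changed with the arrays used: it was 0.09 without mock replicate 1 and 0.11 without DEX replicate 2, but -0.29 without mock replicate 2 and -0.31 without DEX replicate 1. In the fit without the filter its log2 change was -0.10 ± 0.28 (SE; adjusted p = 0.961, limma). A difference between SLY1 and SNE in their response was not tested.

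**Figure D3:**
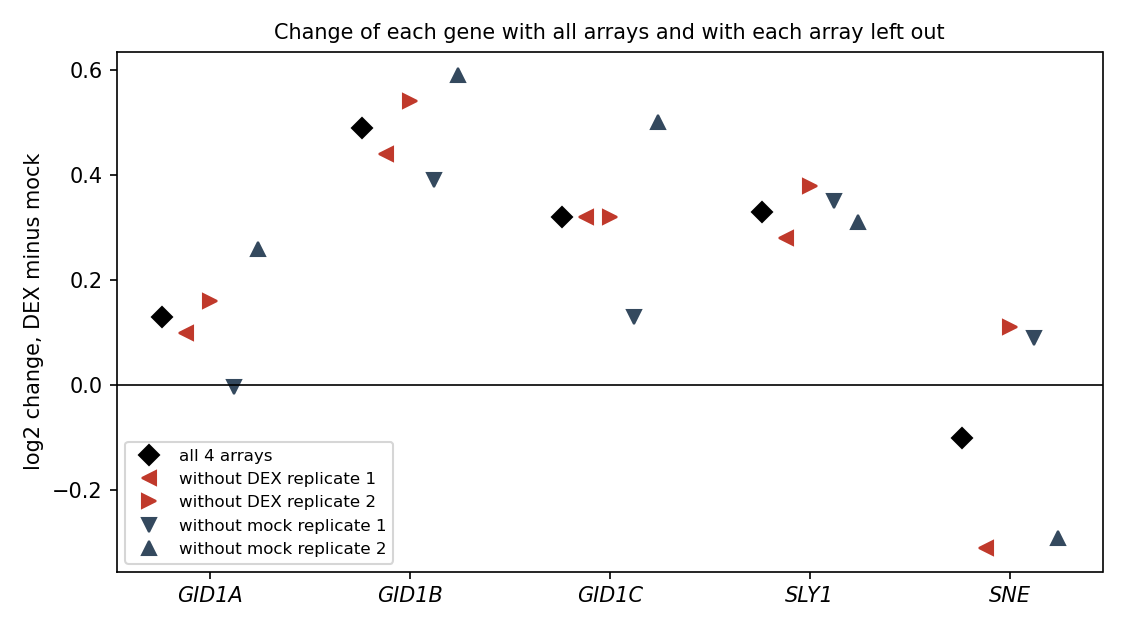
log2 change (DEX minus mock) of each gene with all 4 arrays (diamonds) and with each array left out (triangles, red for a DEX array and blue for a mock array). The estimates of GID1B, GID1C and SLY1 stay above 0 in every case, that of GID1A is -0.0036 without mock replicate 1, and those of SNE lie on both sides of 0.

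The other steps of the pathway could be followed only in part. The DELLA repressors (5 loci), the SCF core subunits (4), gibberellin synthesis (14) and gibberellin inactivation (11) had single-locus probe sets for 0 of their 34 loci in the array annotation, and they were not analysed here. The annotation listed 14016 of the 22810 probe sets and left 8794 unlisted, so this count describes the annotation used and not what the array can measure. Of 13 other signalling genes 3 had a probe set and all 3 were tested; 0 passed the threshold in limma, and the unadjusted p was under 0.05 for 1, higher in DEX, where 4.81% of all tested probe sets were. That gene was XERICO, which encodes a small RING-H2 protein known for its effect on abscisic acid levels and as a gene whose transcript DELLA proteins raise. XERICO had signals of 695.8 and 689.0 on the DEX arrays, against 587.2 and 546.8 on the mock arrays, with both DEX arrays above both mock arrays as in 18.2% of all tested probe sets. Its log2 change was 0.29 ± 0.12 (SE; unadjusted p = 0.0345, adjusted p = 0.487, limma).

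SPY and SEC encode O-linked sugar transferases that modify DELLA proteins with fucose and N-acetylglucosamine. SPY had signals of 295.9 and 287.7 on the DEX arrays, against 371.1 and 281.3 on the mock arrays. These overlapped, with mock replicate 1 apart from the other arrays, and the log2 change was -0.15 ± 0.16 (SE; adjusted p = 0.856, limma). SEC had signals of 610.0 and 600.9 on the DEX arrays, against 580.5 and 568.7 on the mock arrays. The groups were narrowly separate, with both DEX arrays above both mock arrays as in 18.2% of all tested probe sets. The log2 change of SEC was 0.08 ± 0.12 (SE; adjusted p = 0.901, limma). The median log2 change of the 3 signalling genes was 0.08.

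Among 14 genes listed as gibberellin-responsive, most were of the GASA family of small secreted cysteine-rich peptides. Of the 14, 6 had a probe set and 3 were tested. GASA1 to GASA6 had no single-locus probe set in the annotation and were not analysed here. In limma 0 of the 3 passed, where 0.586% of all tested probe sets did. At an unadjusted p under 0.05 the count was 0 of 3, where 9.25% of all tested probe sets differed in either direction. AT2G14900 had a log2 change of 0.06 ± 0.10 and AT1G22690 one of 0.15 ± 0.18 (SE). EXPA8, which encodes a cell wall loosening expansin, had one of -0.11 ± 0.15 (SE). The median was 0.06. The dim member AT5G59845 had signals of 88.4 and 87.2 on the DEX arrays, against 60.8 and 70.3 on the mock arrays. Both DEX arrays lay above both mock arrays, as in 14.4% of the probe sets under the filter. Its log2 change in the fit without the filter was 0.42 ± 0.27 (SE; adjusted p = 0.743, limma). The other dim members, AT2G18420 and AT2G30810, had log2 changes of -3.30 and -1.96 in that fit (adjusted p = 0.346 and 0.695, limma). For each, both DEX arrays lay below both mock arrays, as in 22.2% of the probe sets under the filter. Every signal of these other members was far under the filter level.

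The GID1 proteins belong to the plant carboxylesterase family, whose other members do not bind gibberellin as receptors. Of 17 other loci listed for this family, 12 had a probe set and 7 were tested. None of the 7 passed the threshold in limma, and 1, CXE20, had an unadjusted p under 0.05, in the lower direction, where 4.45% of all tested probe sets did. CXE20 had signals of 132.0 and 112.3 on the DEX arrays, against 149.2 and 213.5 on the mock arrays. Both DEX arrays lay below both mock arrays, as in 21.1% of all tested probe sets, and its log2 change was -0.55 ± 0.21 (SE; adjusted p = 0.449, limma). AT1G47480 had a log2 change of -0.31 ± 0.17, AT1G49650 one of -0.10 ± 0.17 and AT2G03550 one of 0.06 ± 0.14 (SE). The median of the 7 was -0.04 and their range -0.55 to 0.06, while the tested receptor genes GID1A and GID1B stood at 0.13 and 0.49; these counts and medians describe the lists, and a difference between them was not tested.

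**Figure D4:**
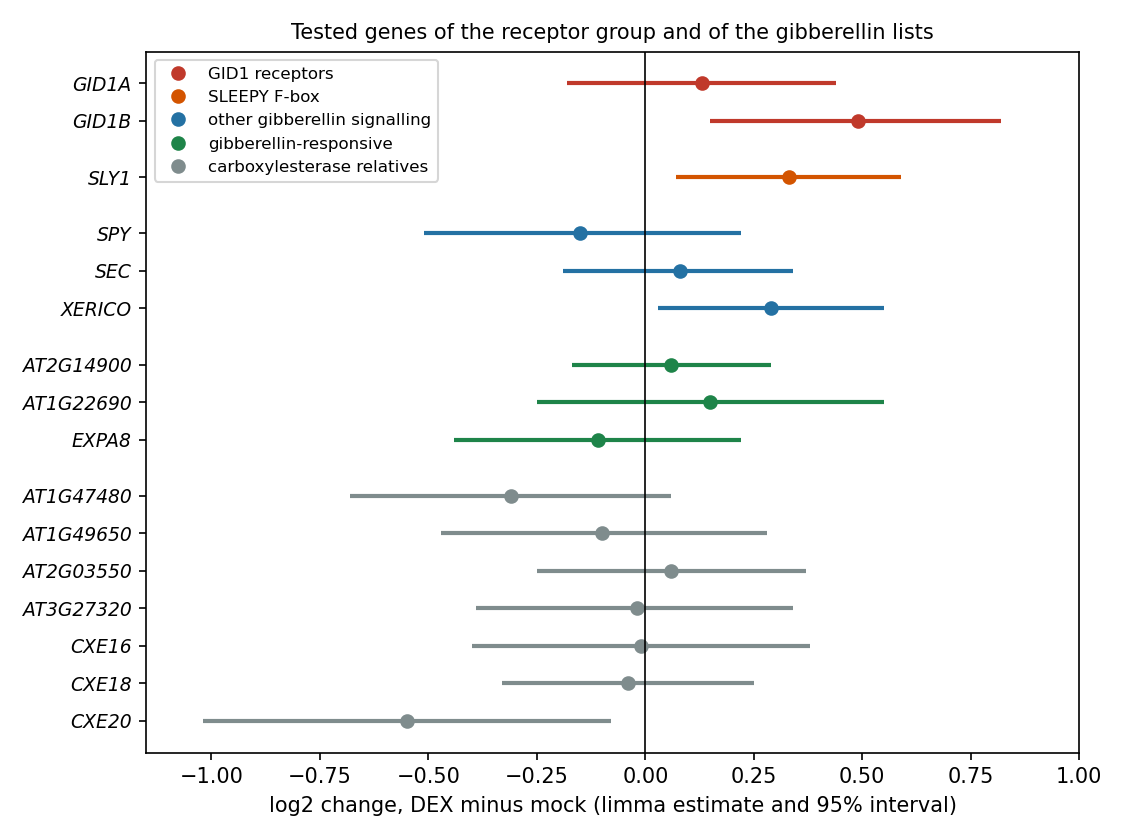
limma estimate (point) and 95% interval (line) of the log2 change, DEX minus mock, for every tested receptor, F-box, signalling, gibberellin-responsive and carboxylesterase gene, coloured by list. The intervals of GID1B, SLY1 and XERICO lie above 0 and that of CXE20 below 0 before adjustment for the number of probe sets, and the others include 0.

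The genes with the pattern most like each tested member were found by the root mean square difference of log2 signals over the 4 arrays, each gene centred on its own mean, among 7275 tested probe sets of a single gene. For GID1B these were AT5G25240, with a difference of 0.0293, and AT4G17280, with 0.0294. AT4G17280 had signals of 273.4 and 269.1 on the DEX arrays, against 179.4 and 203.5 on the mock arrays, and its log2 change of 0.51 ± 0.15 (SE; adjusted p = 0.289, limma) did not pass either. For SLY1 they were HWS, itself an F-box gene, with a difference of 0.0162, and AT3G19515, with 0.0193. HWS had signals of 225.9 and 207.6 on the DEX arrays, against 179.5 and 170.9 on the mock arrays, with a log2 change of 0.31 ± 0.16 (SE; adjusted p = 0.61, limma). For GID1A they were AT5G58920, with a difference of 0.00875, and AT5G44820, with 0.00959. With 4 arrays, this likeness is a description only, and the similar log2 changes follow from how these genes were picked.

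Among the root markers, 2 of 4 had an unadjusted p under 0.05, AT5G17820 and the root hair expansin gene EXPA18, both with lower signals in DEX seedlings, where 4.45% of all tested probe sets were lower at that level, and 0 passed after adjustment in limma. AT5G17820 had signals of 959.4 and 910.1 on the DEX arrays, against 1378.7 and 1248.0 on the mock arrays, and its log2 change was -0.49 ± 0.11 (SE; adjusted p = 0.126, limma). The log2 change of EXPA18 was -0.43 ± 0.15 (SE; adjusted p = 0.372, limma), while PYK10, an abundant root glucosidase gene, stood at 0.04 ± 0.10 and EXPA7 at -0.22 ± 0.20 (SE). The green tissue markers RCA, LHCB4.2, PRK and PORB stood at -0.16, -0.08, 0.09 and -0.23 on the log2 scale, none past the threshold. The part of tissue makeup in the values of the receptor and F-box genes was not tested.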

How the data were processed

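The samples were grouped by title into 2 DEX and 2 mock arrays. The deposited intensities are MAS5 signals on a linear scale, per the submitters' processing notes; version and settings are not given in the sources used here. The mean of an array, with its lowest and highest 2% of values trimmed, came to 500 when averaged over the 4 arrays. Each array was scaled as a whole, so the values cannot show a change in total RNA per cell. Detection calls were not used, and the number of arrays limits the precision.

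Of 22810 probe sets, 64 controls were removed and the remaining 22746 log2-transformed with no pseudocount. The filter at the 40th percentile of the mean retained 13648 and removed 9098. The array annotation, updated through RefSeq genes of assembly TAIR10.1, paired 13436 probe sets with 1 locus. The array's own build is not named, and no coordinates are printed.

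The comparison used limma 3.58.1 under R 4.3.3, with a group term, two-sided tests, variances moderated along a trend with the mean and Benjamini-Hochberg adjustment over all retained probe sets. The arrays supplied 2 of the 9.74 degrees of freedom per test, and the prior supplied 7.74. The fit was tested on data simulated from its own prior over 13648 probe sets. Of these, 92 of 100 changed 2-fold and 100 of 100 changed 4-fold were recovered, with 10 false calls among 202. Smaller changes, such as the 1.4-fold estimate for GID1B, were not simulated, so their rate of recovery is not known.

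Named were the 5 genes, up to 4 tested genes of lowest p per list (all measured ones where at most 4 were tested), and the 2 genes of most similar pattern per tested member. The members and lists were chosen with earlier results of these data known. Alternatives were other scalings (quantile normalization, median centring), no filter or one at the 20th or 60th percentile, adding 32 before the logarithm, variances with no trend or robust ones, the replicate number as a block, and each array left out.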

Additional observations from a re-analysis of the deposited data

How the results depend on the processing

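No receptor or F-box gene passed the threshold under any alternative that tested it. Outside the fits with an array left out, the log2 change of GID1A lay between 0.12 and 0.14, GID1B between 0.43 and 0.50, SLY1 between 0.32 and 0.34, GID1C between 0.24 and 0.34 and SNE between -0.10 and -0.06. With an array left out the ranges were -0.0036 to 0.26, 0.39 to 0.59, 0.28 to 0.38, 0.13 to 0.50 and -0.31 to 0.11 in that order; GID1A was -0.0036 without mock replicate 1, and the cause was not tested. GID1B could not be tested with the filter at the 60th percentile. The main counts of 40 probe sets higher and 40 lower were 15 and 10 without the filter and 20 and 23 with the filter at the 60th percentile. They were 98 and 87 with the replicate block, under which GID1B had an adjusted p of 0.198 in limma. Same-numbered arrays deviated together at r = 0.109, across probe sets, and with only 2 numbers the samples share no more than a number. With an array left out the counts ran from 13 to 276 higher and from 12 to 220 lower, with 276 and 220 without mock replicate 1, 164 and 96 without mock replicate 2, 13 and 14 without DEX replicate 1 and 13 and 12 without DEX replicate 2; such a fit takes its spread from the group that keeps both arrays, and the lone array is assumed to vary likewise.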

Other observations

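Some dim probe sets of the same lists had lower signals in DEX seedlings. AT5G06570, listed among the carboxylesterases and chosen here after its values were seen, had signals of 59.3 and 71.6 on the DEX arrays, against 106.6 and 164.2 on the mock arrays. Its log2 change in the limma fit without a filter was -1.02 ± 0.29 (SE; unadjusted p = 0.00828, adjusted p = 0.42). AT2G18420, of the gibberellin-responsive list, had signals of 1.5 and 5.3 on the DEX arrays, against 26.3 and 28.6 on the mock arrays, all far under the filter level, and an adjusted p of 0.346 in limma in that fit. AT2G30810, of the same list, had signals of 1.1 and 4.3 on the DEX arrays, against 10.8 and 6.5 on the mock arrays. Of the dim probe sets 22.2% had both DEX arrays below both mock arrays, and 14.4% had both above.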
